A study of Mus musculus with 6 samples.

Results

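The genes examined here act in the nucleolus, the nuclear compartment in which ribosomes are made. The list holds 36 genes named for their known roles, and each of the 36 had a row among the 17110 genes of the authors' deposited table. They were measured in mouse embryonic stem cells of the line TG2A that carry a fluorescent protein under MERVL, an endogenous retrovirus that is switched on in the two-cell embryo and in a small share of cultured stem cells. Per the labels, the culture medium held serum and leukemia inhibitory factor, both sorted groups carried the reporter, and the sort gave MERVL::DsRed2+ and MERVL::DsRed2- cells. There are 3 samples in each of the 2 groups, taken as biological replicates on different dates, and polyadenylated RNA was sequenced. The labels give 1 line and do not say whether it is a single clone.

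RNA polymerase I transcribes the ribosomal RNA genes into a long precursor. Small nucleolar RNAs bound to box C/D or box H/ACA proteins guide the methylation and pseudouridylation of this precursor, and large assemblies of processing factors fold and cut it into the RNAs of the small and the large ribosomal subunit. Embryonic stem cells divide fast and have prominent nucleoli, and nucleolar proteins such as nucleolin are known to help keep the two-cell programme silent in them.

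Every fold change below has the sign the authors' deposited table gives it, and that table does not say which sorted group a positive sign favours. The table was taken to compare the DsRed2+ with the DsRed2- group because the labels hold no other groups. It gives 1 log2 fold change per gene, its standard error (SE) and a p-value adjusted over genes by DESeq2, and no value per sample. The 95% intervals were computed here as the fold change plus or minus the normal quantile times the SE. Library depth and the spread between replicates were not analysed here, because the 6 count columns match no sample label.

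The E-box, the motif that Myc and Max bind, is shown first for the members that hold it, because Myc is the best known activator of ribosome biogenesis genes. RefSeq promoter windows (GRCm38.p6, 250 bases before to 50 after each start site) were matched by symbol for 31 of the 36 genes. The motif searched was CACGTG, which reads the same on both strands. It was found in 6 of the 31 genes (19.4%) and in 617 of 4530 matched genes that average 1000 normalized counts or more, called abundant below (13.6%). Over all matched genes of the authors' deposited table the share was 11.5%. Over 109 matched genes of a separate list of other ribosome biogenesis genes it was 20.2%. Counted per window and not per gene, the motif was in 7.15% of all 32851 windows. The capitals mark the motif in each sequence:
Rrn3, site nearest the start: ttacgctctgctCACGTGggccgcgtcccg
Rrn3, upstream site: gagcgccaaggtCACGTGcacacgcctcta
Nop2: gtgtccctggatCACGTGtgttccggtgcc
Pes1: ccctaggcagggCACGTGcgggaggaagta
Wdr43: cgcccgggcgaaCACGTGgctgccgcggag
Utp20: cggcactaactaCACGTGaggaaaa
Mybbp1a: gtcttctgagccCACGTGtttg

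The stretches lie at chr16:13780639-13780668 and chr16:13780472-13780501 (plus strand) for Rrn3, and at chr6:125131811-125131840 (plus) for Nop2. Pes1 is at chr11:3963965-3963994 (plus), Wdr43 at chr17:71616220-71616249 (plus), Utp20 at chr10:88826765-88826789 (minus) and Mybbp1a at chr11:72441355-72441376 (plus), all in GRCm38.p6. Rrn3 was the single gene of the 31 with more than 1 such site, which began 48 and 215 bases before its start, and Nop2 had a site 60 bases before. In Pes1, Wdr43, Utp20 and Mybbp1a the motif began 2, 17, 37 and 40 bases after the start, so it lies in the transcribed part. The upstream 250 bases of Rrn3 (chr16:13780449-13780698, plus strand) show both sites in place, since Rrn3 also had the highest fold change of the 36 genes:
Rrn3: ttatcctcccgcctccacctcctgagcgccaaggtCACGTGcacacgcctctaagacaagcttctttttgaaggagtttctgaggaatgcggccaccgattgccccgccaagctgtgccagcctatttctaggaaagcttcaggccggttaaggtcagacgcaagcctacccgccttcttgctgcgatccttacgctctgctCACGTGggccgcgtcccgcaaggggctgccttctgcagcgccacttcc

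Of the 6 genes with an E-box in the window, 1 passed the test described next (Rrn3), and 5 of the 6 genes that passed it had none. A second motif found at many housekeeping promoters, CTCGCGAG, is also its own reverse complement. It was in 0 of the 31 matched genes, in 3.31% of the abundant genes and, counted per window, in 0.919% of all windows. A match is a run of letters, not a measured site.

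Across the list, small positive fold changes prevailed. In the authors' deposited table, 34 of the 36 genes were positive and 2 were negative, against 51.0% positive over all genes and 59.7% over the 5780 abundant genes. At an adjusted p-value under 0.05, 6 of the 36 were called positive (16.7%) and 0 negative. The background in the authors' deposited table was 14.6% called positive and 15.9% called negative, 30.5% in all, and 18.3% called positive among the abundant genes. The share of members called positive thus lies near the background, and the share called in either direction, 16.7%, is below it. At an unadjusted p-value under 0.05, the counts were 7 positive and 0 negative of the 36. Over all 17110 genes they were 3208 positive and 3359 negative, and over the 5780 abundant genes 1382 positive and 924 negative. The median log2 fold change of the 36 genes was 0.18, or 13.4% on the linear scale, beside 0.0097 over all genes and 0.057 over the abundant genes.

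This picture moved with the centre of the fold changes. Centred on the median of 72 cytosolic ribosomal protein genes, a shift of 0.097, the 36 genes had a median of 0.084, 26 were positive and 10 negative, and 3 stayed called (Rrn3, Heatr1 and Ubtf). The same shift took the positive share of all calls in the authors' deposited table from 47.8% to 34.2%. The share of all genes called positive went from 14.6% to 10.8%, and the number called negative rose from 2719 to 3549.

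**Figure D1:**
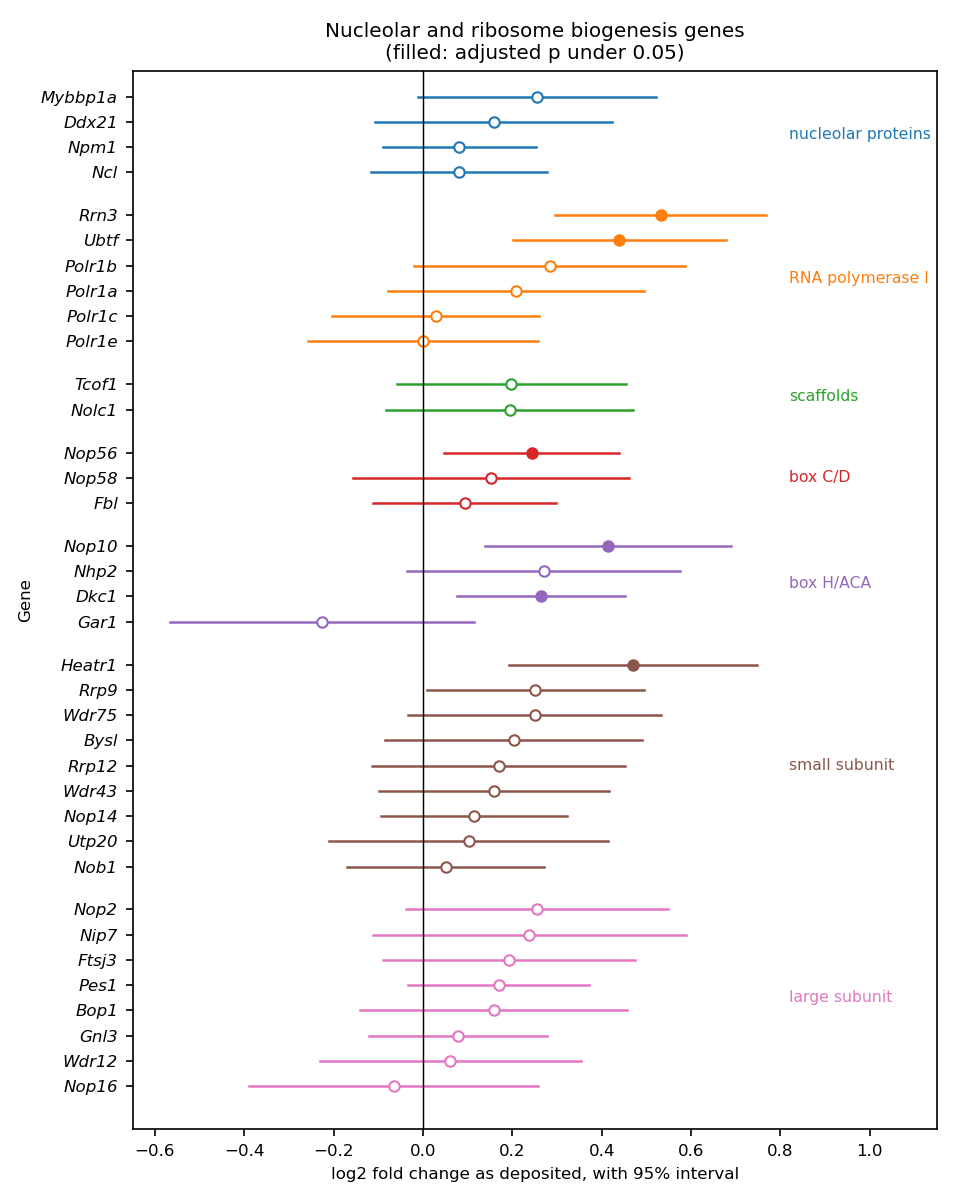
Log2 fold change of each of the 36 genes in the authors' deposited table (points) with its 95% interval (lines), grouped and coloured by role, and filled where the adjusted p-value is under 0.05. All points but those of Gar1 and Nop16 lie at or right of 0, the 6 filled points lie between 0.24 and 0.53, and most intervals cross 0.

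The 2 smallest adjusted p-values of the list belonged to genes of RNA polymerase I transcription. Rrn3 (ENSMUSG00000022682), the factor that makes RNA polymerase I competent to start, had a log2 fold change of 0.53 with an SE of 0.12 by the authors' deposited table (adjusted p-value 8.75e-05). This is 44.6% on the linear scale, with a 95% interval from 22.7% to 70.4%, and Rrn3 was the single gene of the 36 beyond the authors' fold-change limit of 0.5, where 9.4% of all genes were called positive. For Ubtf (ENSMUSG00000020923), which binds and bends ribosomal DNA, the authors' deposited table gave 0.44 with an SE of 0.12 (adjusted p-value 0.00174).

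The 4 polymerase subunits among the 36 genes did not pass. Polr1a and Polr1b, the large catalytic subunits, had log2 fold changes of 0.21 and 0.28 with SEs of 0.15 each by the authors' deposited table (adjusted p-values 0.305 and 0.163). Polr1c, shared with RNA polymerase III, stood at 0.028 with an SE of 0.12 (adjusted p-value 0.893), as the authors' deposited table has it. The fold change nearest 0 of the whole list was that of Polr1e, at 9.21e-05 on the log2 scale in the authors' deposited table, with an interval from -16.3% to 19.6% on the linear scale. Rrn3 and Ubtf therefore stood above these 4 subunits in these values, and the difference between them was not tested.

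A separate list held 10 further genes of RNA polymerase I transcription. Of these, 3 were called positive (30%, against 14.6% of all genes) and 0 negative in the authors' deposited table. By the authors' deposited table these were Baz2a, a part of the complex that silences ribosomal DNA, at 0.41 with an SE of 0.10 (adjusted p-value 0.000341), the polymerase subunit Polr1h at 0.33 and the promoter factor subunit Taf1b at 0.25. Centred on the ribosomal protein genes, Baz2a alone of these 3 stayed called, while Polr1h and Taf1b did not (adjusted p-values 0.176 and 0.168). Polr1d, the partner of Polr1c in both polymerases, had -0.12 with an SE of 0.11 by the authors' deposited table (adjusted p-value 0.472).

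Small nucleolar ribonucleoproteins come in 2 classes. Of the 4 box H/ACA proteins, which form the pseudouridylation enzyme, 2 were called positive in the authors' deposited table. The authors' deposited table gave Nop10 a log2 fold change of 0.41 with an SE of 0.14 (adjusted p-value 0.0137). For Dkc1, the pseudouridine synthase dyskerin, the authors' deposited table gave 0.26 with an SE of 0.096 (adjusted p-value 0.0219). Nhp2 had 0.27 in the authors' deposited table, slightly more than Dkc1, but its SE of 0.16 left it short of the threshold (adjusted p-value 0.192). Neither Nop10 nor Dkc1 stayed called after centring on the ribosomal protein genes (adjusted p-values 0.0715 and 0.184).

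Gar1, the fourth protein of this particle, was the lowest of the 36 genes. It had a log2 fold change of -0.23 with an SE of 0.17 by the authors' deposited table (adjusted p-value 0.355), and its interval ran from -32.4% to 8.21%. The intervals of Gar1 and Nop10 did not overlap, whereas those of Gar1 and Dkc1 did, from 0.077 to 0.11, and no difference between genes was tested. Naf1, which holds the place of Gar1 while the particle is being built, was also negative, at -0.30 with an SE of 0.16 by the authors' deposited table (adjusted p-value 0.146). The authors' deposited table gave Shq1, the other assembly factor of dyskerin, 0.30 with an SE of 0.14 (adjusted p-value 0.0801). None of these 3 passed the threshold, though Naf1 did so after centring on the ribosomal protein genes, at -0.40 (adjusted p-value 0.0401).

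The box C/D proteins, which carry 2'-O-methylation, lay closer together. The authors' deposited table gave Nop56 a log2 fold change of 0.24 with an SE of 0.10, and the adjusted p-value, 0.0496, was just under the threshold. It lost the call once the centre was set to the median of all genes, a shift of 0.0097 (adjusted p-value 0.0618). Nop58, its partner, had 0.15 with an SE of 0.16, and the methyltransferase fibrillarin (Fbl) had 0.093 with an SE of 0.10 by the authors' deposited table (adjusted p-values 0.518 and 0.56). Snu13, the fourth core protein, stood at 0.25 with an SE of 0.14 by the authors' deposited table (adjusted p-value 0.175). Over the 10 genes of small nucleolar particle assembly on a separate list, Snu13, Naf1 and Shq1 included, 0 were called in the authors' deposited table and 1 had an unadjusted p-value under 0.05.

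Nolc1 and Tcof1, scaffold proteins that link the small nucleolar particles to RNA polymerase I, had nearly equal values. Their log2 fold changes were 0.19 and 0.20 with SEs of 0.14 and 0.13 in the authors' deposited table, and neither passed (adjusted p-values 0.322 and 0.267).

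None of the 4 abundant nucleolar proteins was called, and at an unadjusted p-value under 0.05 the count was 0 too. Npm1 (nucleophosmin), a multivalent protein of the outer nucleolus, had a log2 fold change of 0.081 with an SE of 0.087 by the authors' deposited table (adjusted p-value 0.538). Its interval, from -6.03% to 19.1%, was the narrowest of the 36. Ncl (nucleolin) had 0.080 with an SE of 0.10 and an interval from -7.81% to 21.1% by the authors' deposited table (adjusted p-value 0.611). Ddx21, an RNA helicase, and Mybbp1a, a nucleolar partner of several transcription factors, stood at 0.16 and 0.26 with SEs of 0.14 each in that same authors' deposited table (adjusted p-values 0.416 and 0.151). Centred on the ribosomal protein genes, the sign of Npm1 and Ncl turned, to -0.016 and -0.017.

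Among the 9 small-subunit factors, all 9 were positive in the authors' deposited table and 1 was called. Heatr1, a large scaffold of the early processing complex, had a log2 fold change of 0.47 with an SE of 0.14 by the authors' deposited table (adjusted p-value 0.00457). On the linear scale this was 38.5%, with an interval from 14.2% to 68.0%. Rrp9, the protein specific to the U3 particle, came next by p-value, at 0.25 with an SE of 0.12 in the authors' deposited table, and passed only before adjustment (adjusted p-value 0.115).

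The rest of the small-subunit factors had values between 0.051 and 0.25 in the authors' deposited table. Wdr75 and Wdr43, which join Heatr1 in the subcomplex that meets the nascent transcript, had 0.25 and 0.16 with SEs of 0.14 and 0.13 in the authors' deposited table. The late factors Bysl and Rrp12 had 0.20 and 0.17, and the early factors Nop14 and Utp20 had 0.11 and 0.10 in the authors' deposited table. Nob1, the nuclease that makes the last cut of the small-subunit RNA, was nearest 0, at 0.051 with an SE of 0.11 by the authors' deposited table (adjusted p-value 0.791).

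None of the 8 large-subunit factors was called in the authors' deposited table, and none had an unadjusted p-value under 0.05. Pes1, Bop1 and Wdr12 form a single complex, and their log2 fold changes were 0.17, 0.16 and 0.061 with SEs of 0.10, 0.15 and 0.15 in the authors' deposited table. Pes1 had the smallest p-value after Nop2, an RNA methyltransferase, which had 0.26 with an SE of 0.15 by the authors' deposited table (adjusted p-value 0.202). Nip7 and Ftsj3, which act on the same precursors, had 0.24 and 0.19 with SEs of 0.18 and 0.14 in the authors' deposited table. Gnl3 (nucleostemin), a nucleolar GTPase known from stem cells, had 0.079 with an SE of 0.10 by the authors' deposited table (adjusted p-value 0.621). Nop16 was the other negative gene of the list, at -0.066 with an SE of 0.17 in the authors' deposited table and an interval from -23.7% to 19.6%.

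The fold changes of the 36 genes varied about as much as their errors. Their standard deviation was 0.15 on the log2 scale, and the median SE was 0.14 in the authors' deposited table. For 25 of the 36 genes the whole 95% interval lay within 0.5 of 0 on the log2 scale, which held for 23 of the 30 genes not called. A call needed a ratio of fold change to SE of at least 2.43, so the median member would have been called from a log2 fold change of 0.34, and the members ranged from 0.21 (Npm1) to 0.43 (Nip7). Changes of the size of the list's median, 0.18, were below that limit for every member.

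The SEs of the 36 genes were mostly above those of other abundant genes. Their SEs ran from 0.087 to 0.18 in the authors' deposited table, and 28 of 36 were above 0.11, the median of the abundant genes. The median member stood at the 79.3rd percentile of those genes. Within the range of the members' own mean counts, from 1828 to 206927, the median SE was 0.10 over 3898 genes. The ribosomal protein genes had a median SE of 0.083, with 8 of 72 above the same line, and the other ribosome biogenesis genes 0.13, with 97 of 129 above it. No test of this difference was run, and the values per library behind it were not analysed here.

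**Figure D2:**
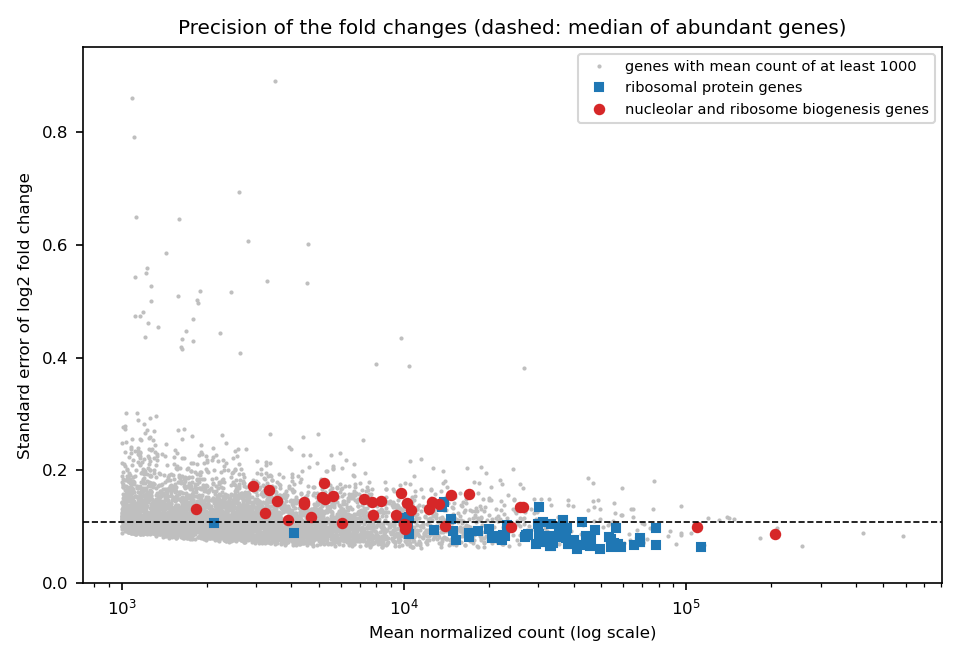
Standard error of the log2 fold change against the mean normalized count (log scale) in the authors' deposited table, for abundant genes (mean count of 1000 or more, grey), ribosomal protein genes (blue squares) and the 36 nucleolar and ribosome biogenesis genes (red circles). Of the red points 28 lie above the dashed median of 0.11, against 8 of 72 blue points.

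The mean normalized count is pooled over libraries, and all 36 genes were among the abundant ones. Polr1e was lowest, at 1828 in the authors' deposited table, above 77.2% of all genes. Per kilobase of the principal GENCODE transcript, Npm1 stood highest with a mean count of 126716, followed by Nhp2 with 14143 and Ncl with 13360, while Wdr12 and Polr1e were lowest with 525 and 612. The principal transcripts of Wdr12 and Ncl are annotated with 10012 and 8202 bases, which lowers their values per length. The mean count of Ncl not divided by length, 109574, was above the 14737 of Nhp2, so their order rests on the annotated lengths.

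A separate list of 130 other ribosome biogenesis genes, of which 129 had a row, gave values close to those of the 36. Over the authors' deposited table its median fold change was 0.15 on the log2 scale, 109 of 129 genes were positive, 16 were called positive (12.4%) and 1 was called negative. In the authors' deposited table the 5 highest of these were Mdn1, the giant ATPase that remodels large-subunit precursors, at 0.48 with an SE of 0.11 (adjusted p-value 0.000202), Nol6 at 0.47, Urb2 at 0.44, Exosc4 at 0.44 and Baz2a at 0.41. The single gene called negative was Nol7, a nucleolar protein placed on the large-subunit list, at -0.26 with an SE of 0.081 by the authors' deposited table (adjusted p-value 0.00651). After centring on the ribosomal protein genes, 5 were called positive and 3 negative, and the median was 0.052.

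By role, the other large-subunit list had 9 of 53 genes called positive (17.0%) and 1 negative in the authors' deposited table. The other small-subunit list had 2 of 43 positive (4.65%) and 0 negative in the authors' deposited table. For the exosome and nuclease list the counts were 2 of 13 positive (15.4%) and 0 negative. Over all genes 14.6% were called positive. Among the 9 large-subunit genes were Noc3l at 0.40, Ppan at 0.40, Urb1 at 0.34 and Rsl24d1 at 0.36, and the called small-subunit genes were Nol6 and Tbl3, at 0.47 and 0.33 in the authors' deposited table. The called exosome genes of the authors' deposited table were Exosc4 at 0.44 and Exosc5 at 0.38. Centred on the ribosomal protein genes, 2 large-subunit genes (Mdn1 and Urb2), 1 small-subunit gene (Nol6) and 1 exosome gene (Exosc5) stayed called positive, and Exosc3 joined Nol7 among those called negative. The medians of the 3 lists were 0.13, 0.17 and 0.081 in the authors' deposited table.

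**Figure D3:**
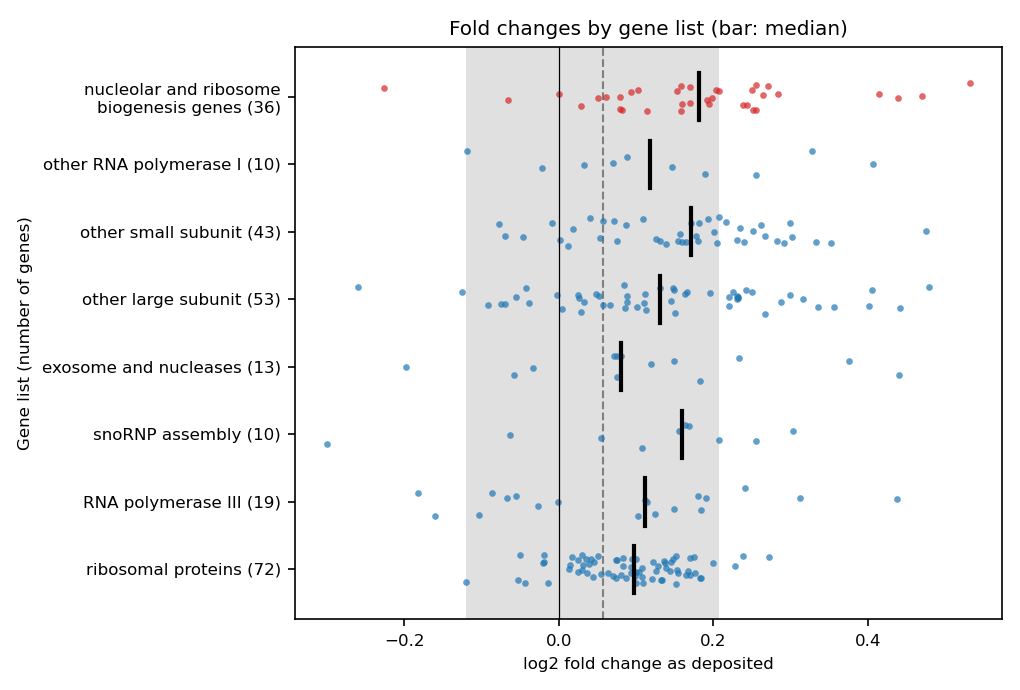
Log2 fold changes in the authors' deposited table by gene list (1 point per gene, black bar at the median, number of genes in brackets); the grey band and dashed line give the middle 50% and the median of abundant genes. The medians lie between 0.081 and 0.18, all right of the dashed line at 0.057, and the points of the 36 genes spread from -0.23 to 0.53.

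Neighbouring machineries had positive medians too. The 72 ribosomal protein genes, whose products the nucleolus assembles, had a median log2 fold change of 0.097 and a spread from -0.12 to 0.27 in the authors' deposited table, with 5 called positive and 0 negative. Of the 19 genes of RNA polymerase III, which makes the 5S ribosomal RNA and transfer RNAs, 11 were positive and 8 negative. This is 57.9% positive, beside 59.7% of the abundant genes. The median of the 19 genes was 0.11, with 2 called positive (10.5%). These were the subunits Polr3b, at 0.44 with an SE of 0.082 (adjusted p-value 1.34e-06), and Polr3g, at 0.31 in the authors' deposited table. Under ribosomal protein centring Polr3g was no longer called (0.22, adjusted p-value 0.159), which left 1 of the 2. No difference between these lists was tested.

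The Myc network was mixed. Myc had a log2 fold change of -0.12 with an SE of 0.29 in the authors' deposited table, and Mycn had -0.21 with an SE of 0.11 (adjusted p-values 0.817 and 0.151). Mycn passed the threshold after centring on the ribosomal protein genes, at -0.31 (adjusted p-value 0.0225), where negative calls over all genes rose to 3549. Max, the partner of both, was called positive in the authors' deposited table at 0.23 with an SE of 0.085. So were Mxi1, Mxd3 and Mxd1, which compete with Myc for Max, at 0.58, 0.54 and 0.37 in the authors' deposited table. In all, 4 of the 9 network genes were called positive (44.4%, against 14.6% of all genes) and 0 negative. Centred on the ribosomal protein genes, 2 were called positive (Mxi1 and Mxd3) and 2 negative (Mycn and Mxd4), and Max and Mxd1 were not called (adjusted p-values 0.259 and 0.166). Mxd1 also lost its call when centred on all genes (adjusted p-value 0.0551).

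**Figure D4:**
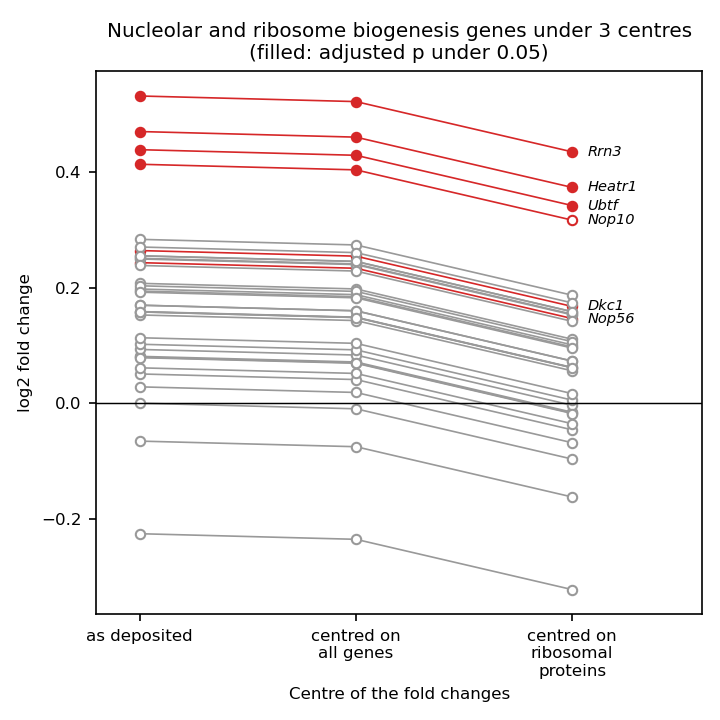
Log2 fold changes of the 36 genes as deposited by the authors, centred on the median of all genes, and centred on the median of the ribosomal protein genes (lines join a gene, red for the 6 genes called as deposited, filled where the adjusted p-value is under 0.05). Called genes number 6, 5 and 3 from left to right, and 2, 3 and 10 genes lie below 0.

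Many markers of cell identity had larger fold changes in the same comparison, but not all. Of 11 pluripotency genes with a row, 8 were called positive, led by Tbx3 at 2.39 with an SE of 0.18 in the authors' deposited table, and 1 was called negative (Dppa3, at -0.76). Of these 11, 7 were called beyond 0.5 in size. Pou5f1 and Sall4, at 0.26 and 0.39, and the uncalled Klf4 and Sox2, at 0.32 and 0.14, lay within the range of the 36 genes. Of 8 trophectoderm genes, 6 were called negative and 0 positive, led by Krt19 at -4.73 in the authors' deposited table. Of 7 fibroblast genes, 5 were called negative and 0 positive, led by Tagln at -5.96 in the authors' deposited table. The other 2 fibroblast genes, Vim and Thy1, were positive but not called, at 0.20 and 0.34 in the authors' deposited table. Their mean counts were 4399 and 51.0. The calls of Hand1, Col1a1 and Col1a2 rest on low mean counts of 25.8, 20.9 and 10.1. Those of Acta2 and Twist1 rest on 55.9 and 51.9. Primitive endoderm genes split, with Lama1 at 1.91 and Dab2 at -2.18 as the only called genes of 6. Of 17 two-cell markers listed, 1 had a row here, Calcoco2, at 3.10 with an SE of 0.14 in the authors' deposited table, so the labelled state was not checked against its defining genes. Levels in each group were not analysed here, and whether unlike shares of cell types in the groups had a part in the values of the nucleolar genes was not tested. Fewer cells of a type and less RNA per cell cannot be told apart in such bulk samples.

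Some members match transcripts of other genes in sequence. In GENCODE M21, transcripts of other genes matched 6 members at 95% identity or more over at least 300 bases. Of these, Npm1 had 4 such genes with a row, whose summed mean count was 1.82% of its own, and Nop56 had 3, with 1.35%. Fbl matched the pseudogene Fbl-ps2, with a mean count of 434.2 in the authors' deposited table, and a stretch of a Tulp4 transcript, whose gene had 2400. Their summed mean count was 28.3% of that of Fbl, the largest such share of the 36 genes, and how many of these reads come from the shared stretch was not analysed here. The copies of these 3 genes had fold changes between -0.18 and 0.30 in the authors' deposited table, and 0 were called. In addition, 6 members hold annotated small nucleolar RNAs within the gene (Ncl, Nop56, Nop58, Dkc1, Wdr43 and Gnl3), and 15 overlap a gene on the opposite strand, among them Nop56, Dkc1 and Heatr1. The sources used here do not say whether strand was used in counting, so these values are less certain.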

How the data were processed

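RNA from 6 samples (3 DsRed2+, 3 DsRed2-) was sequenced as paired reads. Per the submitters' processing notes, FastQC 0.12.1, Trimmomatic 0.39, STAR 2.7.11b, RSEM 1.3.3, DESeq2 1.45.3 and build GRCm39 were used. The model formula and reference group are not given in the sources used here. Per the file headers, the authors' table holds the mean normalized count (a signal pooled over libraries), the log2 fold change and its SE, the Wald statistic (a score) and p-values, as deposited. The 6 columns of the count table have flow cell and barcode numbers as names that match no sample label, and were not used.

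Calls are an adjusted p-value under 0.05 over 17110 genes. Intervals (95%), medians and alternatives were computed with Python 3.11.15, pandas 2.3.3 and scipy 1.17.1, and the Wald test and Benjamini-Hochberg adjustment were recomputed where fold changes were centred. The procedure was run on simulated fold changes with normal errors of the deposited SEs and changes larger than those of the members. This checks the code and not the power at the members' fold changes. Ribosomal protein genes were symbols Rpl or Rps with a number, alone or followed by a or x. This leaves out kinases, pseudogenes and paralogs, and also ribosomal protein genes with other forms of symbol, such as Rpsa. With every symbol that starts with Rpl or Rps and a number, 195 genes had a median of 0.13. Near-identical genes were found with blastn 2.17.0 among the transcript sequences of GENCODE M21. The same annotation gave names, lengths, and the genes and small nucleolar RNAs that overlap a member. Promoter windows are from RefSeq, GRCm38.p6, a build other than the authors'.

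The members and lists were chosen with earlier results of these data known. Values are given for each called member and, by role, for those with the smallest p-value and the fold change nearest 0, and more briefly for the rest. Of the other biogenesis genes, the 5 highest and lowest called are given, and of the comparison and marker lists the gene with the smallest p-value. Polr1d, Snu13, Naf1, Shq1, Myc, Mycn, Exosc3, Mxd4, Klf4, Sox2, Vim, Thy1 and further called genes of these lists were named after their values were seen. The background of abundant genes (1000 counts or more) and the comparison of SEs were chosen after seeing the data.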

Additional observations from a re-analysis of the deposited data

How the results depend on the processing

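Alternatives that need counts per sample (edgeR, other size factors, leaving out a replicate) were not run, because the count columns match no sample. No paired analysis was possible because those columns name no replicate and the deposited comparison has 1 value per gene. Whether 1 library decides a value is therefore not answered here.

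The 6 members called positive became 3 at an adjusted p-value of 0.01, 1 at an absolute log2 fold change over 0.5, 0 over 1, and 3 when centred on ribosomal protein genes. The share of all genes called positive was 10.8%, 9.4%, 5.59% and 10.8% under these settings in the same order, and 14.6% as deposited. The 16 other biogenesis genes called positive became 7, 0, 0 and 5 under the same settings, and the 1 called negative became 0 at both fold limits and 3 when so centred. Stricter limits lower counts by construction. Over all genes, 2492 positive calls became 1609 and 957 at the fold limits, and 2719 negative calls became 1315 at the stricter. Ribosomal centring also took the medians from 0.18 to 0.084 (members) and from 0.15 to 0.052 (others).

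Signs turned, without a call on either side, for Polr1e when centred on all genes (-0.0096) and, when centred on ribosomal protein genes, for Polr1e (-0.097), Polr1c (-0.068), Nob1 (-0.046), Wdr12 (-0.035), Gnl3 (-0.018), Ncl (-0.017), Npm1 (-0.016) and Fbl (-0.0036). A recomputed adjustment and a minimum mean count of 50 changed no call of a member. Of 252 values of members under the 7 alternatives, 225 kept direction and call, 18 lost a call and 9 turned sign. Much of this agreement was set in advance, since stricter limits cannot change an uncalled member and the recomputed adjustment repeats the same test. All 18 lost calls were those of members called as deposited. The cause of the shift under ribosomal centring was not tested.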
